A study of Nicotiana plumbaginifolia and Nicotiana benthamiana and Nicotiana rustica with 81 samples.

Results

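The floral nectary of Nicotiana glauca, tree tobacco, was compared between the open flower at anthesis (stage 12) and the stage that precedes secretion (stage 9). The members are the reference transcripts with a mean normalised read count of 50 or more in either stage, which are 18411 of the 38230 in the table. Of these, 17162 reached 50 at stage 9, 17377 at stage 12 and 16128 in both. The table names its values only as sample means and SDs. They are whole numbers of like column sums and are read here as normalised counts. Every tested transcript passed that filter through at least 1 of the stages compared, so its count in the other stage was free to be low.

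The study sequenced RNA of nectaries from 6 Nicotiana species at 4 flower stages, with 3 libraries in each group, and 3 other tissues of N. plumbaginifolia. Both N. glauca groups came from untreated plants of a single germplasm line, TW-54, raised in separate pots under long days, and the nectaries were dissected by hand. They carry no transgene or treatment and differ in flower stage alone, as far as the labels say. The rows of the table are named by the matching transcript of N. tabacum, an allotetraploid with near-identical gene copies, so reads can be split between copies and a value per transcript is uncertain where copies exist. Whether the 3 libraries of a stage came from separate plants is not stated, so p-values measure the spread between these libraries, which may be technical. No source used here states the hour of harvest.

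A nectary fills with sugar and starch before the flower opens and releases nectar at anthesis. In the best known model, sucrose is made in the gland, leaves the cells through the SWEET9 transporter, and is split in the wall by a cell wall invertase, while water follows through aquaporins. In tobacco the MYB305 factor and the YABBY factor CRABS CLAW mark the gland, and its nectar holds defence proteins called nectarins.

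The label of the tissue was checked against those markers. The SWEET9 relative of the gland (described as NEC1-like, XM_016615427.1) had 34157 ± 392 normalised counts at stage 9 and 28771 ± 12673 at stage 12, against 11 in the post secretory stage, which follows fertilization. All values written in this way are means ± SD of 3 libraries. The MYB305-like transcript XM_016582512.1 had 12871 ± 166 and 18242 ± 8271, and 5 after secretion. CRABS CLAW (XM_016610040.1) had 5490 ± 178 and 9038 ± 3531, and 38 after secretion. These 3 markers were abundant at both stages, and none of the 3 differed between the stages by the test described next, with adjusted p of 0.7, 0.3 and 0.081.

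Markers of neighbouring tissues were summed beside them, since the gland sits at the base of the ovary. The 25 ovule and ovary transcripts summed to 8174 at stage 9 and 8102 at stage 12, of which SHP1 relatives made up 6984 and 6651. The ovule genes BEL1 and INO were listed at 0 in both stages, and STK relatives summed to 163 and 91, against 2835 in the ovary of N. plumbaginifolia. The 28 vascular transcripts summed to 589 and 448, with XCP1, IRX9 and LAC4 listed at 0 in both stages. The 152 photosynthesis transcripts summed to 5420 and 4907, against 86928 after secretion. The 24 transcripts named for pollen or anther summed to 6845 and 6203, of which those described as anther-specific made up 3 and 27. No summed marker list of another tissue was higher at stage 12 than at stage 9. In bulk tissue, fewer cells of a type and less RNA per cell cannot be told apart.

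The 2 groups differed in how far their libraries lay from each other. Among transcripts at 50 or more, the median SD over mean was 0.0511 at stage 9 and 0.186 at stage 12, against 0.0588 at stage 6 and 0.105 after secretion. The SD exceeded 0.5 of the mean in 2100 of 17377 transcripts at stage 12 (12.1%) and in 10 at stage 9 (0.0583%). Stage 12 of N. glauca had the widest spread of the nectary groups sampled up to anthesis, where the other medians lay between 0.0511 and 0.121. Leaf of N. plumbaginifolia, with 0.33, the post secretory nectaries of N. rustica, with 0.229, and those of the joint profile, with 0.266, were wider. Values of single libraries were not used here, so no library was left out, and whether 1 library sets the spread of stage 12 was not tested. The exact limits that a mean and an SD of 3 values allow are given instead.

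**Figure D1:**
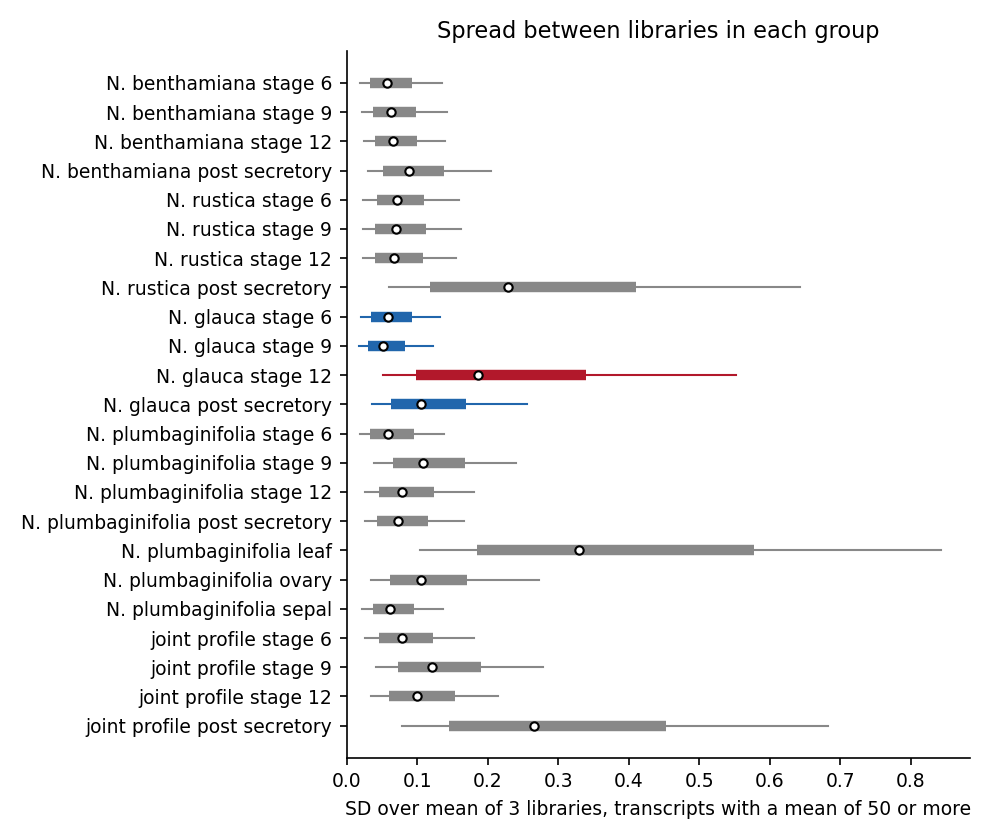
Spread between the 3 libraries of each group, as SD over mean for transcripts with a mean of 50 or more. Circles are medians, thick bars the range from the 25th to the 75th percentile and thin bars the range from the 10th to the 90th percentile. Stage 12 of N. glauca (red) has a median of 0.186, beside 0.0511 at stage 9. The joint profile is 1 set of values that the table repeats for N. bonariensis and N. clevelandii.

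The change of a transcript is the log2 ratio of stage 12 mean plus 1 to stage 9 mean plus 1, which understates the change of low transcripts. It was tested with limma's moderated variances on the deposited means and SDs, with Benjamini-Hochberg adjusted p under 0.05 over all 18411. A second condition asked whether the libraries could overlap. The 3 values behind a mean and SD lie no farther than 1.15 SD from the mean, so groups whose means lie farther apart than that share no value. Below, a transcript "rose" or "fell" if it passed the test and its libraries cannot overlap.

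By this rule 3663 transcripts rose (19.9% of those tested) and 2998 fell (16.3%), 36.2% in all. The test alone called 7206 (39.1%), 4206 of them higher and 3000 lower. Of the 545 that passed with an overlap possible, 543 were higher at stage 12. The overlap rule compares SDs on the count scale, where the wide relative spread of stage 12 weighs most on high means. It therefore drops rises more readily than falls, and this imbalance is set by the rule. The median change over all transcripts was 0.06. Changes of 2-fold or more with no overlap possible were made by 1440 transcripts upward and 1591 downward, 7.82% and 8.64% of those tested and together 16.5%. Without the test, the libraries of 50.5% cannot overlap, and 19.8% changed by 2-fold or more in their means. If any 1 library of each stage is left out, at least 1946 of the 3031 keep a 2-fold change, 1016 upward and 930 downward. These are lower limits, set at the worst case for each transcript on its own. They cannot show which direction would hold more transcripts. The authors' deposited table calls 4956 of the tested transcripts different between these stages (26.9%), and 4703 of those were also past the test used here.

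**Figure D2:**
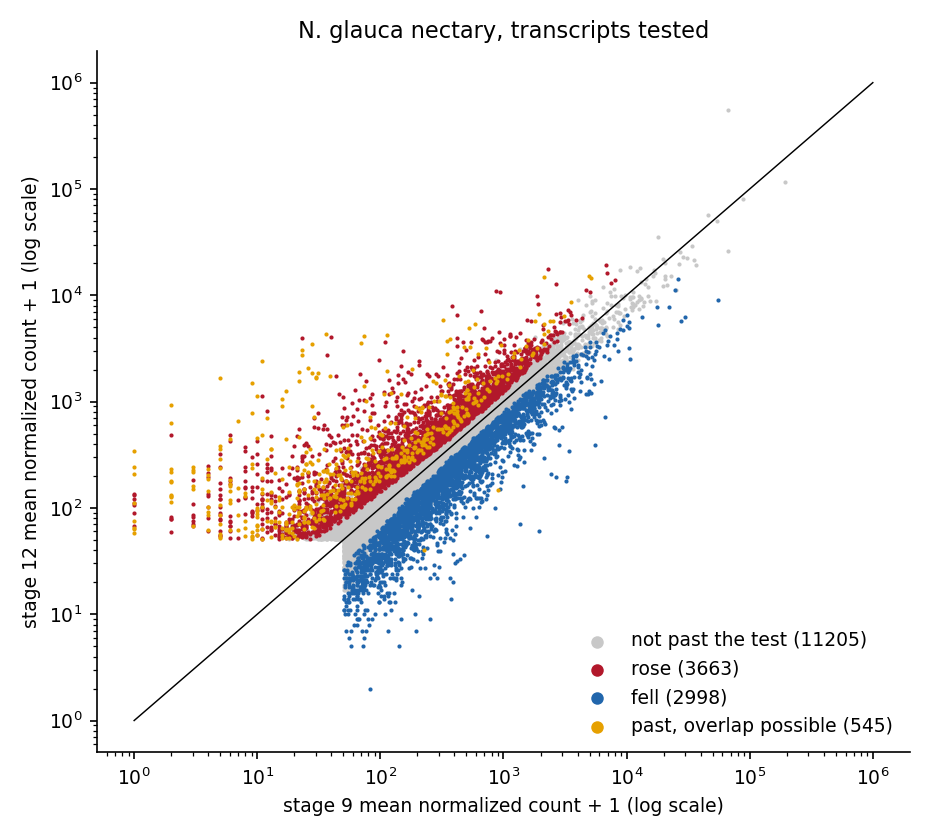
Mean normalised count plus 1 of the 18411 transcripts at stage 9 (x) and stage 12 (y), both on log scales, with the line of equality. The 3663 that rose are red, the 2998 that fell are blue, the 545 past the test with an overlap possible are orange and lie almost all above the line, and the others are grey.

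Sums per Arabidopsis locus, which pool gene copies, gave a like picture. Of 12541 matched loci 10422 reached the filter, and 3606 were past the test (34.6%), 2020 higher and 1586 lower. For 3339 of them (32%) the libraries cannot overlap. Among 3954 loci with 2 or more tested transcripts, 180 (4.55%) held 1 transcript that rose and another that fell. Where 2 or more rose or fell, they moved 1 way at 876 of 1056 loci.

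Of 34 tested transcripts of sucrose synthesis, cleavage and export, 6 rose and 7 fell, shares close to the 19.9% and 16.3% of all transcripts, and the median change was -0.01 beside 0.06. The most abundant sucrose synthase, XM_016604254.1, an enzyme that splits sucrose to feed starch and energy, had 67116 ± 952 at stage 9 and 25832 ± 9920 at stage 12. Its libraries cannot overlap, but its change of -1.38 ± 0.55 (SE) missed the threshold with adjusted p = 0.1, since the test gives the few most abundant transcripts a wide error. With the spread taken as equal at all levels, an alternative chosen after seeing the data, its adjusted p was 0.017. A further copy, KF977579.1, fell from 8592 ± 179 to 2961 ± 1052 (adjusted p = 0.007).

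Other sucrose synthases moved the opposite way. XM_016608006.1 rose from 2854 ± 107 to 6785 ± 1603 and XM_016595402.1 from 596 ± 18 to 1642 ± 13 (adjusted p = 0.00082). Cell wall invertase 4, which splits the exported sucrose, had 16465 ± 511 and 15334 ± 5274 (XM_016593154.1, adjusted p = 0.82). The vacuolar sucrose carrier SUC4 (XM_016621608.1) fell from 846 ± 12 to 325 ± 78. A SWEET17 relative, in Arabidopsis a fructose transporter of the vacuole, rose from 2 ± 2 to 67 ± 34 (XM_016646654.1). The difference of the main nectar transporter was likewise smaller than the spread of stage 12, where its libraries may lie anywhere between 14138 and 43405.

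Of 31 tested starch breakdown transcripts 8 rose and 9 fell, beside 19.9% and 16.3% of all transcripts. Beta-amylase 1, which releases maltose from starch, rose from 704 ± 27 to 2812 ± 200 (XM_016660106.1), a change of 2.00 ± 0.11 with adjusted p = 0.00022. Beta-amylase 3 (XM_016591116.1), the main such enzyme of leaves at night in Arabidopsis, rose from 48 ± 2 to 708 ± 229, 3.85 ± 0.22. The stage 12 libraries of both lie above every stage 9 library.

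Glucan phosphorylases and beta-amylase 2 went down in the same samples. Phosphorylase H (XM_016646180.1), which acts on glucans in the cytosol, fell from 2590 ± 55 to 575 ± 393. Phosphorylase L-1 of the plastid (XM_016635072.1) fell from 1115 ± 32 to 510 ± 238. Beta-amylase 2 (XM_016578787.1) fell from 1642 ± 37 to 422 ± 156, and alpha-glucan water dikinase (XM_016595549.1), which primes starch for attack, from 1835 ± 46 to 1096 ± 140.

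Starch synthesis leaned downward. Of 27 tested transcripts 1 rose and 9 fell, beside 19.9% and 16.3% over all transcripts. The plastid ATP carrier XM_016615182.1 fell from 4876 ± 19 to 2564 ± 570 and granule-bound starch synthase 1 (XM_016577486.1) from 1277 ± 22 to 576 ± 188. A large subunit of ADP-glucose pyrophosphorylase (XM_016597192.1), the first committed step, fell from 272 ± 25 to 59 ± 52. The exception was the glucose-6-phosphate translocator XM_016598669.1, which brings hexose phosphate into plastids and rose from 50 ± 4 to 868 ± 527, 4.09 ± 0.32. Phosphoenolpyruvate carboxykinase (XM_016579669.1), an enzyme of sugar synthesis from organic acids and the most abundant transcript of stage 9, had 192020 ± 5315 and 117011 ± 71612, with adjusted p = 0.69.

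Of 32 tested aquaporin and proton pump transcripts 16 rose and 7 fell, beside 19.9% and 16.3% of all transcripts, with a median change of 0.52. The 21 aquaporins among them, counted apart after their values were seen, held 13 that rose and 2 that fell. The plasma membrane aquaporin PIP1;4 (BK008503.1) rose from 2660 ± 63 to 12680 ± 312, 2.25 ± 0.14, with an SD over mean of 0.0246 at stage 12. PIP2;1 (BK008505.1) rose from 870 ± 47 to 10957 ± 4896 and PIP1-2 (XM_016602745.1) from 384 ± 18 to 7895 ± 2706. Tonoplast channels moved both ways. The TIP1-1 copy XM_016594997.1 rose from 4 ± 1 to 320 ± 38, and the copy XM_016657795.1 fell from 2661 ± 60 to 832 ± 231.

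Pumps that energise transport were divided too. The vacuolar pyrophosphatase XM_016641463.1 rose from 1687 ± 29 to 5747 ± 1074, while its copy XM_016594476.1 fell from 2100 ± 46 to 1385 ± 133. The 4 plasma membrane ATPases that fell matched AHA11, among them XM_016625805.1 from 1989 ± 25 to 1103 ± 90. The most abundant of these pumps, XM_016602228.1, had 6037 ± 37 and 4516 ± 654 (adjusted p = 0.11).

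**Figure D3:**
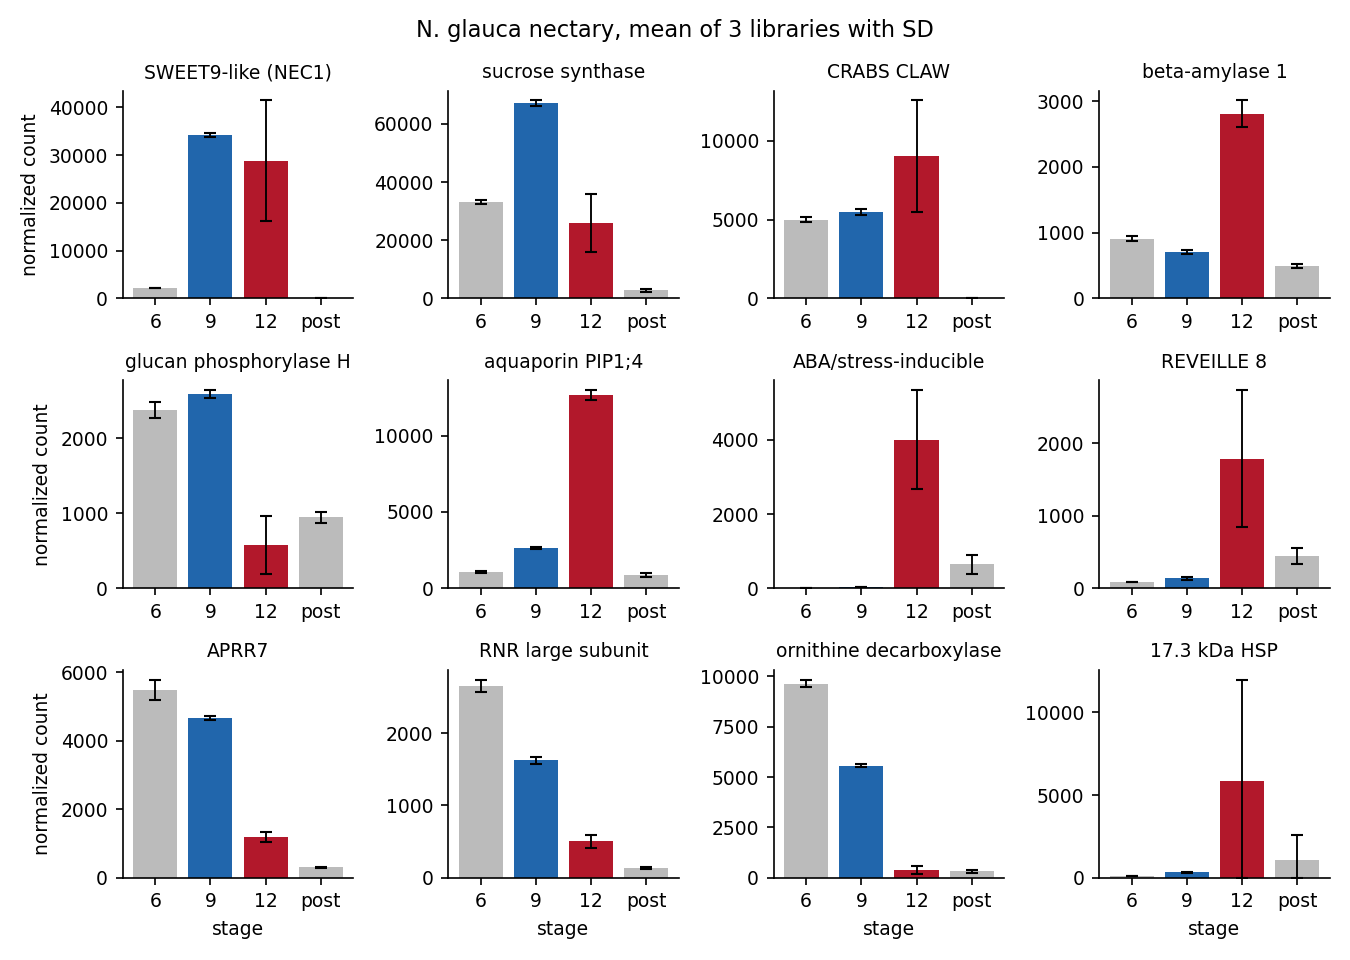
Normalised counts of 12 named transcripts over the 4 N. glauca stages, as means of 3 libraries with SD (bars start at 0, and an SD that would pass below 0 is drawn to 0). Stage 9 is blue, stage 12 red. Beta-amylase 1 and PIP1;4 peak at stage 12 with short error bars, REVEILLE 8 and the stress-inducible transcript peak there with long ones, and APRR7, the reductase and ornithine decarboxylase step down.

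Genes of abscisic acid and drying, the hormone that closes stomata and prepares tissue for water loss, were mostly higher. Of 34 tested transcripts 16 rose and 1 fell, beside 19.9% and 16.3%, with a median change of 0.71. Outside the list, the transcript XM_016646097.1, described as inducible by abscisic acid and environmental stress, rose from 22 ± 2 to 4006 ± 1341, 7.44 ± 0.21 (adjusted p = 9.1e-05). NCED3 (JX101472.1), which makes the hormone's precursor, rose from 121 ± 8 to 303 ± 54. XM_016578541.1, known here only by its match to a synthesis gene, rose from 12 ± 3 to 236 ± 50. The 6 transcripts matched to the synthesis gene ABA2 were lower in sum, with 6298 at stage 9 and 4234 at stage 12. The most abundant of the ABA2 matches, XM_016584549.1, described as secoisolariciresinol dehydrogenase-like, had 5961 ± 112 and 3808 ± 2022 (adjusted p = 0.14). Phosphatases that hold the pathway back rose as well, such as XM_016632470.1 from 237 ± 13 to 950 ± 235. For the homeobox gene ATHB-7 (XM_016635693.1), with 9 ± 3 and 454 ± 485, the libraries may overlap.

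Cell division genes were the list with the lowest median, -1.30, and 20 of 31 tested transcripts fell while 1 rose, beside 16.3% and 19.9% of all transcripts. The large subunit of ribonucleotide reductase (XM_016589669.1), which makes the building blocks of DNA, fell from 1627 ± 49 to 504 ± 88, -1.69 ± 0.14. Its small subunit (XM_016631530.1) fell from 1129 ± 38 to 379 ± 82. Of the MCM helicase subunits that open DNA for copying, MCM2, MCM3, MCM5, MCM6 and MCM7 each had a transcript that fell. MCM4, with 438 ± 8 and 195 ± 147, had adjusted p = 0.053. The one that rose was a mitotic cyclin, XM_016648548.1, from 205 ± 8 to 308 ± 68, a call lost with the delta method for the SD, with rescaling and with equal spread at all levels. Cyclin-D3-1 (XM_016660564.1) had 752 ± 34 and 853 ± 74 (adjusted p = 0.23).

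Of 28 tested circadian clock transcripts 16 rose and 5 fell, beside 19.9% and 16.3% of all transcripts. Genes that peak around dawn in Arabidopsis were among the rises. LHY (XM_016607589.1) rose from 176 ± 8 to 1834 ± 1172, REVEILLE 8 (XM_016600156.1), a morning activator, from 137 ± 22 to 1790 ± 948, and REVEILLE 1 (XM_016618796.1) from 200 ± 19 to 820 ± 80. The co-activator LNK1 (XM_016625132.1) rose from 22 ± 0 to 310 ± 36, 3.76 ± 0.21. In the other direction, the repressor APRR7 (XM_016577881.1) fell from 4656 ± 52 to 1189 ± 136, -1.97 ± 0.13, and the 5 that fell are described as APRR7 or PRR37. GIGANTEA (XM_016647776.1), which peaks late in the day in Arabidopsis, rose from 2319 ± 56 to 4019 ± 288. Summed over its transcripts, PRR5 had 259 at stage 9 and 2173 at stage 12, TOC1 had 816 and 1335, and ZTL had 948 and 1695. The sums of PRR3, with 1287 and 955, and FKF1, with 589 and 482, were lower at stage 12. Values were higher at stage 12 in dawn genes and in some of the others named here. Whether the hour of harvest had a part in these changes was not tested.

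Senescence genes were higher or not different. Of 18 tested, 8 rose and none fell, and 5 more were past the test with an overlap possible. Of all tested transcripts 19.9% rose. A NAC factor 29 transcript, a relative of the leaf senescence regulator NAP, rose from 22 ± 8 to 274 ± 18 (XM_016636746.1). Of the chlorophyll breakdown enzymes, pheophytinase (XM_016611144.1) rose from 256 ± 11 to 698 ± 102 and pheophorbide a oxygenase (XM_016628974.1) from 1484 ± 31 to 2550 ± 469. In the same pathway NYC1 transcripts summed to 433 at stage 9 and 774 at stage 12, and RCCR transcripts to 128 and 88. The senescence genes SAG12, ORE1 and NYE2 were listed at 0 in both stages.

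Jasmonate genes rose in 8 and fell in 4 of 24 tested transcripts, the latter share being close to the 16.3% of all transcripts (19.9% rose). Both copies of the receptor COI1 rose, XM_016623786.1 from 472 ± 8 to 870 ± 12 and XM_016599642.1 from 282 ± 31 to 645 ± 22. The synthesis enzyme allene oxide cyclase (XM_016586618.1) fell from 1444 ± 42 to 763 ± 246, while lipoxygenase 3 (XM_016590970.1) rose from 870 ± 33 to 1661 ± 316. The repressor JAZ3 (AB433898.1) had 1952 ± 36 and 1904 ± 537.

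Among 37 tested nectary and floral regulators 4 rose and 11 fell, beside 19.9% and 16.3% of all transcripts. The petal size gene BPE (XM_016625665.1) fell from 481 ± 30 to 35 ± 7, -3.74 ± 0.19, after 2576 at stage 6. YABBY 1 (XM_016649581.1), a polarity factor, fell from 5184 ± 125 to 1214 ± 213. MADS-box factors of the SEPALLATA class, which specify floral organs, included 3 that rose, such as XM_016645132.1 from 876 ± 47 to 1517 ± 220. The 2 most abundant of that class, XM_016620650.1 and XM_016611479.1, had adjusted p of 0.37 and 0.5.

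Only 4 nectar protein transcripts reached 50, of 7 in the table. Nectarin 1 (XM_016580669.1), a superoxide dismutase of tobacco nectar, had 2290 ± 42 and 4586 ± 2466, past the test (adjusted p = 0.043) with an overlap possible. Nectarin 4 (KJ874398.1), an inhibitor of fungal endoglucanase, rose from 14 ± 2 to 84 ± 35. A further nectarin-1 copy, XM_016601497.1, fell from 55 ± 2 to 14 ± 3.

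Of 29 tested carotenoid transcripts, whose products yield pigment and scent, 6 rose and 7 fell, shares not far from the 19.9% and 16.3% of all transcripts. The entry enzyme phytoene synthase rose in 5 transcripts, in XM_016619890.1 from 1919 ± 32 to 8311 ± 2957. The desaturase that follows (XM_016610712.1) fell from 7156 ± 96 to 2524 ± 884 and the carotenoid isomerase (XM_016613365.1) from 3525 ± 33 to 1663 ± 603. Carotenoid cleavage dioxygenase 1 (KC747730.1), among the 5 most abundant transcripts of both stages, had 88275 ± 1263 and 81281 ± 32369. Of 11 tested ascorbate synthesis transcripts 1 rose and 5 fell, and GDP-L-galactose phosphorylase (XM_016651960.1), the step that sets the rate in leaves, had 8248 ± 171 and 8126 ± 4303.

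Of 16 tested phenylpropanoid and flavonoid transcripts 1 rose and 1 fell, beside 19.9% and 16.3% of all transcripts. A further 4 were past the test and higher with an overlap possible, among them phenylalanine ammonia-lyase (X78269.1) with 2401 ± 52 and 5758 ± 3015. Photosynthesis transcripts that reached 50 numbered 22 of 152, of which 2 rose and 7 fell, beside the same shares of 19.9% and 16.3%. Beside these shares, 2 of the 8 tested ovule and ovary markers rose. Of the 8 named for pollen or anther 1 rose and 2 fell, and of the 4 vascular markers none was past the test.

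**Figure D4:**
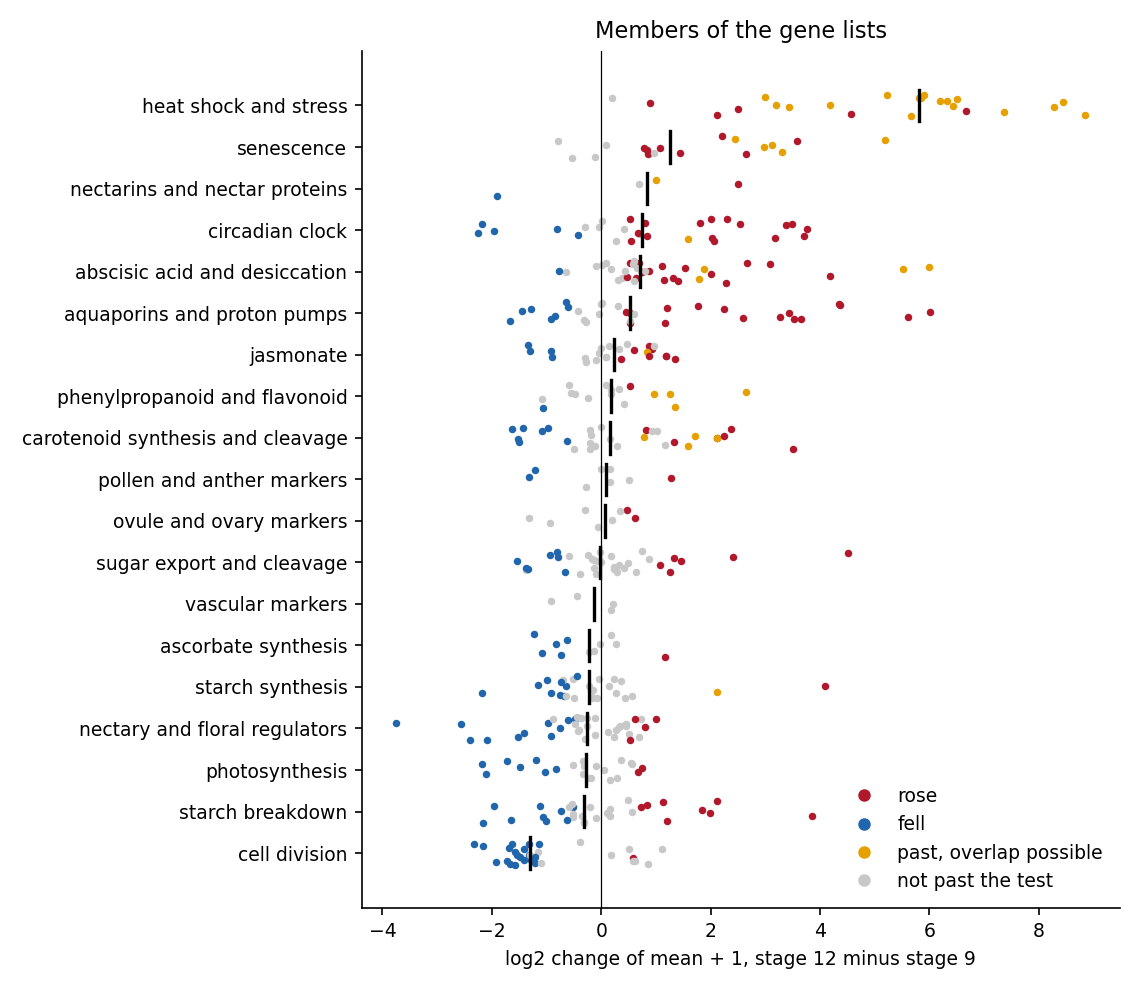
Change of each tested member of the 19 gene lists, as log2 of stage 12 mean plus 1 over stage 9 mean plus 1. Each point is a transcript, black bars are list medians and lists are ordered by median, from -1.30 in cell division to 5.82 in heat shock. In the heat shock list most points are orange, past the test with an overlap possible.

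Heat shock genes had the highest median change, 5.82, and also the widest spread. Their products hold or refold damaged proteins. Of 23 tested transcripts 22 were past the test and higher, yet only 5 rose, since in the other 17 the libraries may overlap. Of all tested transcripts 22.8% were past the test and higher, and 19.9% rose. The listed transcripts summed to 1609 at stage 9 and 35448 at stage 12, and the median SD over mean among those tested was 1.18 at stage 12. The transcript not past the test matches the locus of HSP101 but is described as a DNA helicase, MCM8. Outside the list, the class I small heat shock protein XM_016581485.1 had 561 ± 28 and 466 ± 115 (adjusted p = 0.25). XM_016648356.1, of the same class, had 86 ± 10 and 101 ± 16 (adjusted p = 0.39). Others outside it were past the test and higher, such as XM_016648040.1 with 345 ± 26 and 3726 ± 3154, where an overlap is possible.

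The 2 most abundant members of the list show the wide spread. The class II small heat shock protein XM_016626021.1 had 324 ± 15 and 5875 ± 6096, and the 70 kDa protein XM_016600015.1 had 589 ± 15 and 5411 ± 4666. HSP90 (XM_016632286.1) had 113 ± 12 and 4247 ± 5873. At each of these the stage 12 libraries spread so far that the lowest may lie at or under the stage 9 level.

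A ratio of SD to mean of 1.73 is the most that 3 libraries allow, and it is reached when 1 library carries the whole value. XM_016588321.1, a class I small heat shock protein, had 8 ± 3 and 1483 ± 2487, a ratio of 1.68. XM_016578476.1 was listed at 0 at stage 9 and had 345 ± 586 at stage 12. For such transcripts the call of the test says that the mean is higher and not that the 3 libraries are.

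Those that rose by the stricter rule were fewer. The class II protein XM_016646208.1 rose from 10 ± 0 to 1121 ± 700, and XM_016604967.1, matched to DREB2A, which in Arabidopsis switches on drought and heat genes, from 110 ± 5 to 478 ± 56. The small heat shock protein XM_016581028.1 rose from 2 ± 1 to 70 ± 3 and DREB2A-like XM_016606073.1 from 29 ± 5 to 169 ± 29. The fifth was an uncharacterized transcript matched to DREB2A. After secretion the heat shock sum was 8505, and there XM_016626021.1 had 1094 ± 1502.

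Some heat shock genes were part of a wider set in which 1 library carried most of the value. Means and SDs cannot show whether it was the same library for each transcript. At stage 12, 41 transcripts at 50 or more had an SD over mean of at least 1.6, and none did at stage 9. All 41 were higher at stage 12 and 40 were past the test. At such a ratio the lowest library may be at 0, so the stricter rule cannot be met. By description 8 of them are heat shock proteins and 16 are uncharacterized. The uncharacterized XM_016633054.1 had 35 ± 1 and 4289 ± 7264, so 1 of its stage 12 libraries lay near 12677. XM_016638259.1, described as an uncharacterized mitochondrial protein, had 27 ± 8 and 3484 ± 5908.

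**Figure D5:**
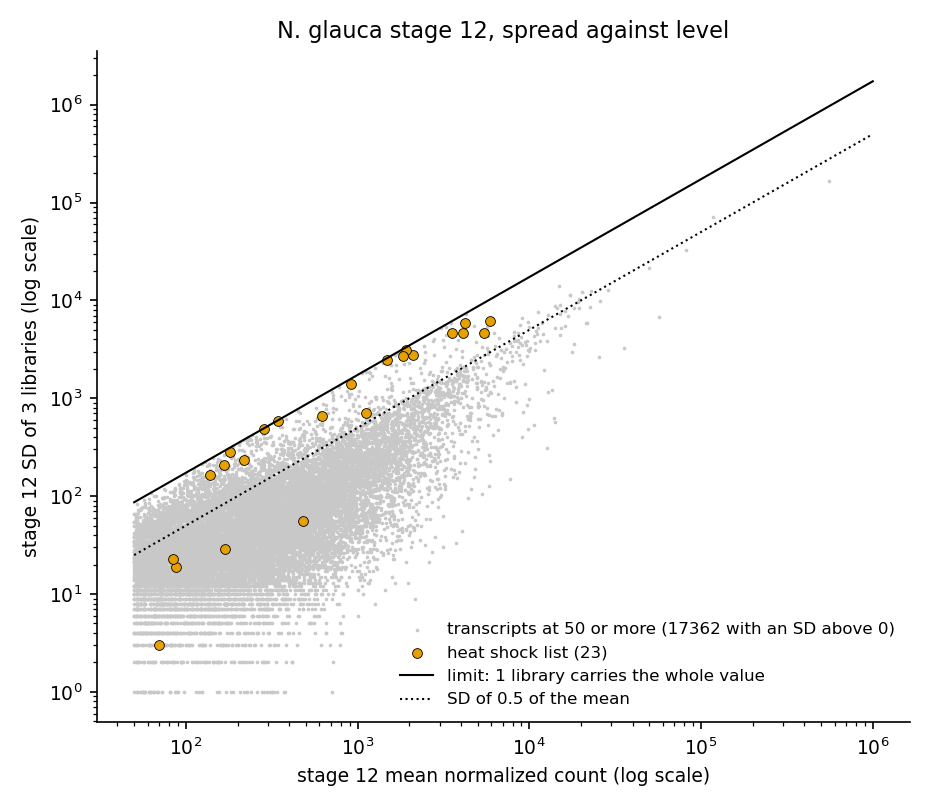
SD against mean of the 3 stage 12 libraries for transcripts at 50 or more, both on log scales (transcripts with an SD of 0 cannot be drawn). The solid line is the limit at which 1 library carries the whole value and the dotted line an SD of 0.5 of the mean. Most of the 23 heat shock transcripts (orange) lie between the lines, while DREB2A relatives lie under the dotted one.

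The 10 largest rises with a description, among them the heat shock protein XM_016646208.1 given above, came from low levels. Early nodulin-93 (XM_016652609.1) rose from 1 ± 2 to 479 ± 174, an early light-induced protein of chloroplasts (XM_016651565.1) from 39 ± 4 to 4045 ± 2664, and NRT1/PTR FAMILY 7.3 (XM_016582249.1), in Arabidopsis a nitrate transporter of the root, from 5 ± 2 to 480 ± 140. PLANT CADMIUM RESISTANCE 2-like (XM_016636502.1), beta-glucosidase 12-like (XM_016658986.1) and the membrane polypeptide Y08609.1 were listed at 0 at stage 9 and had 134 ± 74, 110 ± 42 and 130 ± 82 at stage 12. An aluminum-activated malate transporter (XM_016631091.1) had 0 ± 1 and 106 ± 21. The early light-induced transcript was at 3 after secretion, so it was high at anthesis alone among the N. glauca stages, while the cadmium resistance transcript went on to 318.

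Of the largest falls, 3 act on the cell wall or its pectin. Pectin acetylesterase 8 (XM_016650009.1) fell from 1366 ± 40 to 69 ± 43, pectate lyase 8 (XM_016626381.1) from 388 ± 40 to 19 ± 13, and the repetitive proline-rich wall protein XM_016610534.1 from 115 ± 18 to 6 ± 8. Annexin D4 (XM_016595792.1), a calcium-dependent membrane protein, fell from 3257 ± 117 to 196 ± 86. Zeatin O-glucosyltransferase (XM_016652644.1), which inactivates cytokinin, fell from 367 ± 7 to 21 ± 5. Purple acid phosphatase 17 (XM_016597780.1), which frees phosphate, fell from 81 ± 6 to 1 ± 1, a change of -5.36 ± 0.57.

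Summed per locus, the largest rises past the test were MYB74 (AT4G05100), HSP70B (AT1G16030), 2 small heat shock loci and a PLAC8 family locus (AT5G35525). Only at the PLAC8 locus, with 0 ± 0 and 165 ± 87, can the libraries not overlap. MYB74 had 0 ± 0 and 242 ± 342. The largest falls were a MATE efflux locus (AT3G23560) from 340 to 15, a pectin acetylesterase locus (AT5G45280) from 1391 to 75, annexin 4 (AT2G38750) from 6447 to 375, a pectin lyase-like locus (AT5G48900) from 413 to 28 and pyruvate orthophosphate dikinase (AT4G15530) from 205 to 14. At all 5 the libraries cannot overlap.

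The highest value of stage 12 belonged to 1 entry. D64052.1, described as a cytochrome P450 like_TBP mRNA and without an Arabidopsis match, had 66148 ± 17472 at stage 9 and 555780 ± 165489 at stage 12. Entries of this name can share sequence with ribosomal RNA. No sequence was used here, so the value is that of the entry and cannot be read as the level of a P450 gene. It made up 0.65% and 5.12% of the column sums, and its stage 12 libraries lie between 364690 and 746870. Its change of 3.07 ± 1.37 missed the threshold with adjusted p = 0.11, and with equal spread at all levels adjusted p was 0.0013. The lipid transfer protein pEARLI1-like (XM_016609508.1), in the top 5 of stage 9, fell from 54950 ± 817 to 9119 ± 402. The metallothionein XM_016637342.1 and lipid transfer protein 2 (XM_016646764.1), both among the 5 most abundant at stage 12, had adjusted p of 0.69 and 0.88.

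The N. glauca step was set against the mean step of the 4 other profiles, N. benthamiana, N. rustica, N. plumbaginifolia and the joint profile, with a test of the difference itself. It used the 5624 transcripts at 50 or more in either stage in all 5 profiles, and 2062 were past it (36.7%), with N. glauca above the others in 1093 and below in 969. In 81 (1.44%) N. glauca was past its own test and all 4 other profiles moved the opposite way. The species differ in where their reads match the reference, and its part in these differences was not tested.

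Several of the sugar genes above were among them. The SWEET9 relative changed by -0.25 in N. glauca and by 1.15, -0.90, 2.63 and 1.84 in the other profiles in the order given, a difference of -1.43 ± 0.30 (adjusted p = 0.019). Starch branching enzyme XM_016614346.1 changed by 0.43 in N. glauca and by 1.27 to 2.57 in the others. Phosphorylase H differed by -2.61 ± 0.34, with no other profile under -0.16. Beta-amylase 3 differed by 3.61 ± 0.21, where the others ranged from -0.36 to 1.30.

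Beyond sugar, ribonucleotide reductase (XM_016589669.1) differed from the mean of the others by -2.23 ± 0.16, with changes of 2.22 in N. rustica and -1.02 in N. plumbaginifolia. Ornithine decarboxylase (AF127242.1), which makes putrescine, the source of polyamines and of part of the tobacco alkaloids, fell from 5571 ± 74 to 388 ± 215. Its difference was -3.70 ± 0.31, with the other profiles between -1.23 and 0.84. The 14 kDa proline-rich protein DC2.15-like (XM_016643427.1) fell from 1945 ± 85 to 60 ± 5, a difference of -4.08 ± 0.13 from the mean of the others. REVEILLE 8 differed by 3.42 ± 0.33, with the other profiles between -0.32 and 0.98. CRABS CLAW, not past the N. glauca test, differed by 0.90 ± 0.24 (adjusted p = 0.036).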

How the data were processed

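The authors' deposited table gives, per transcript of N. tabacum and group of 3 libraries, a sample mean and SD as whole numbers. Its header names no unit; the deposited values are taken as a score and read as normalized counts. The deposited yes or no calls are of unit other, with no threshold named. The submitters' processing notes name DESeq, with no role. The sources used here give neither its version nor the aligner, and depth per library is unknown, so no counting interval can be given. The columns for N. clevelandii repeat those for N. bonariensis (38230 transcripts) and count once, as the joint profile. The table's 43 columns of other calls were not used.

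From these values, R 4.3.3 with limma 3.58.1 and data.table, version 1.17.8 computed log2((mean + 1)/(mean + 1)). The log2 SD of each group came from the deposited SD (at least 0.5) by the log-normal formula, with Satterthwaite degrees of freedom and variances moderated with a trend on level (prior degrees of freedom 3.37). No count model, no permutation over libraries and no list test was made. The SD of a locus sum was set to the sum of SDs, its upper limit. The method was also run on simulated data drawn from log-normal libraries. That is the form the test itself takes, so the run is no check of that form. Figures were drawn with matplotlib.

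The 19 lists, matched by locus or description, and the members were chosen with earlier results of these data known. Named transcripts are the 10 largest rises and falls with a description, 1 per locus; in each list the 2 most abundant and the 2 most changed; the 5 most abundant of each stage; the 5 largest locus changes and differences from other profiles in each direction; and the 5 widest at 1000 or more. That gave 111 transcripts. Others in the text are list members chosen as examples after their values were seen.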

Additional observations from a re-analysis of the deposited data

Results flagged for a closer look

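Of the 111 named transcripts 46 were set against the other profiles, and in 30 the N. glauca step differed from the mean step of the 4 others by the test of the difference (adjusted p under 0.05). Groups of 3 libraries are too small for a check of single outlying libraries. Values are log2 differences, N. glauca minus the mean of the others.

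In sugar and starch metabolism, N. glauca was below the mean of the others for the SWEET9 relative (-1.43), starch branching enzyme (XM_016614346.1, -1.46) and the plastid ATP carrier (XM_016615182.1, -1.32). It was also below that mean for phosphorylase H (-2.61) and phosphoenolpyruvate carboxykinase (-1.56). It was above the mean for beta-amylase 1 (1.21) and beta-amylase 3 (3.61). The SWEET9 relative changed by -0.90 in N. rustica, which is lower than the -0.25 of N. glauca.

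Among regulators, cell cycle and clock genes, the difference was 0.90 for CRABS CLAW, -2.74 for BPE, -1.20 for the bHLH79-like transcript XM_016643971.1, -2.23 for ribonucleotide reductase, -1.72 for cyclin-D3-2 (XM_016603007.1), 3.42 for REVEILLE 8 and 0.54 for GIGANTEA. Cyclin-D3-2 changed by -1.75 in N. benthamiana and by 1.11 in N. rustica.

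Aquaporin PIP1;4 was above the mean of the others by 0.79 and the flavonoid enzyme XM_016630614.1 by 1.59. The dehydrogenase XM_016584549.1 of the abscisic acid list was above that mean by 1.30 and the extensin XM_016596397.1, named for pollen, by 1.08. The PIP1;4 change of 2.25 was below the 2.28 of N. benthamiana and above those of the remaining profiles. For the dehydrogenase, N. glauca changed by -0.65 and the joint profile by -0.66, with the remaining profiles at -2.31 or lower. The photosystem protein XM_016587038.1 differed by -2.05.

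The largest differences upward were in the early endosome antigen 1-like transcript XM_016582879.1 (5.65), the uncharacterized XM_016609809.1 (5.58) and XM_016628749.1 (4.98), a chloroplast thioredoxin-like protein, XM_016597356.1 (5.11), and an L-ascorbate oxidase-like transcript, XM_016590886.1 (4.91). The thioredoxin-like transcript rose from 146 ± 3 to 2148 ± 1021 in N. glauca, while all 4 other profiles were lower at stage 12. The entry D64052.1, whose reads may include ribosomal RNA, which was not tested, differed by 4.03.

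The largest downward were the proline-rich wall protein XM_016610534.1 (-5.34), the DC2.15-like protein (-4.08), ornithine decarboxylase (-3.70), the acetylajmalan esterase-like XM_016655818.1 (-3.56) and the uncharacterized XM_016623637.1 (-3.42). The esterase-like transcript fell from 57 ± 2 to 6 ± 6 in N. glauca and was higher at stage 12 in all 4 others.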

How the results depend on the processing

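The count of 7206 transcripts past the test stayed within 1.5 times, from 5312 to 8555, under other pseudocounts, filters, degrees of freedom, SD formulas and scalings, without transcripts with an SD above 0.5 of the mean, and with the no-overlap rule. It did not with each transcript's own spread alone, where 3026 were past it, 1902 of them higher, nor when a call had to hold for every extreme split of libraries that the means and SDs allow (chosen after seeing the data), where 4651 were past it (25.3%). Leaving out any 1 library of each group (leave-one-out bound) kept at least 1946 of the 3031 transcripts with 2-fold changes and no overlap possible, 1016 higher and 930 lower, against 1440 and 1591. Rescaling stage 12 by the median ratio of 1.04, a shift of 0.06 on the log2 scale, gave 3738 higher and 3367 lower. Locus counts ranged from 3132 to 4440 and counts of differences from other profiles from 1969 to 2193. Over 5 alternatives none of the 111 named transcripts changed direction, calls were lost in 8 cases and gained in 3; nectarin 1 lost it with the delta method, rescaling and equal spread, and SHP1 relative XM_016631071.1 with rescaling and equal spread. Counts of list members past the test stayed within 1.5 times in 172 cases and moved in 18, each from a count of 5 or fewer: in cell division the count higher went from 1 to 0, in nectar proteins from 2 to 1, in starch synthesis from 2 to 1 and in phenylpropanoids from 5 to 3. No paired analysis was possible because the table holds no values per library.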

Other observations

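Genes that answer low oxygen were not among the lists above. A list of 15 Arabidopsis loci of that response was put together after their values were seen, so it gets no test. Of these loci 12 had tested transcripts, 25 in all, of which 21 rose, 1 fell and 3 were not past the test, with a median change of 2.98. Of all tested transcripts 19.9% rose. Several of the 21 are uncharacterized copies matched to AT4G10270 or AT4G10265, so the count is of transcripts and not of separate loci. Some matches are loose: AY619947.1, matched to alcohol dehydrogenase 1, is described as an ADH-like UDP-glucose dehydrogenase, and XM_016657923.1, matched to HRA1, as an ESF1 homolog. Alcohol dehydrogenase 1 (XM_016657915.1), which ends ethanol fermentation, rose from 774 ± 10 to 3734 ± 33, and pyruvate decarboxylase 1 (XM_016636659.1), which starts it, from 158 ± 17 to 1513 ± 388. Non-symbiotic hemoglobin 1 (XM_016592867.1) rose from 2 ± 3 to 182 ± 72, plant cysteine oxidase 2 (XM_016577567.1), an oxygen sensor in Arabidopsis, from 279 ± 6 to 682 ± 73, and the ethylene-forming oxidase XM_016611980.1 from 67 ± 11 to 1812 ± 461.

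Several of these rises had close libraries. The SD over mean at stage 12 was 0.0088 for alcohol dehydrogenase 1 and 0.04 for SRO5 (XM_016616993.1), which rose from 152 ± 15 to 3008 ± 120, and the libraries of all 21 cannot overlap. The transcript that fell is a sucrose synthase, KF977579.1, whose copy XM_016595402.1 rose. The most abundant member, the sucrose synthase XM_016604254.1, had 67116 ± 952 and 25832 ± 9920, lower at stage 12 with no overlap possible but with adjusted p = 0.1. After secretion alcohol dehydrogenase 1 was at 548 and pyruvate decarboxylase 1 at 1165.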
